A study of Bos taurus with 6 samples.

Results

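CpGs that were highly methylated in sperm and at intermediate methylation in both somatic cell types were collected from reduced representation bisulfite sequencing (RRBS) of cattle. A CpG was a member when sperm was above 90% and monocytes and fibroblasts were both from 35 to 65%, each percent being methylated reads over all reads summed over the 2 libraries of a cell type. CpGs had to lie on chromosomes 1 to 29 and to carry 10 to 500 reads in all 6 libraries. Of the 950004 CpGs that did, 3425 (0.361%) were members. The members were thus selected on the measured percents of all 6 libraries, and their levels in the 3 cell types are described here without a test.

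Genomic imprinting marks some genes in the germline, so that the copies inherited from the sire and the dam differ in methylation in the somatic cells of the offspring. A mark laid down in sperm is methylated in sperm and then on the paternal copy alone, which gives an intermediate value in bulk somatic DNA. Most known germline marks of mammals come from the oocyte, and only a few come from sperm, among them those of the H19 and IGF2 domain (a non-coding RNA and a fetal growth factor) and of the DLK1 and MEG3 domain. An RRBS percent averages over cells and over both copies of a chromosome, so these values do not tell which copy was methylated, nor whether methylated and unmethylated cells were mixed.

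The sperm came from 2 Holstein bulls, with 1 commercial frozen straw each. The monocytes were purified from the blood of 2 Holstein cows with CD14 beads, and the fibroblasts were grown as primary cultures from the ear skin of 2 other Holstein females, which the labels call cows and the study's methods adult heifers. The ages of the bulls and of the blood donors are not given in the sources used here. The labels give no treatment, all 6 animals differed, and sex cannot be told apart from the contrast of sperm with somatic cells, nor culture from the fibroblast type. Libraries were amplified with 14 PCR cycles for fibroblasts and sperm and with 12 for monocytes. Summed coverage per library was 45884839 to 78890776. The cell types were not checked against marker genes, since no gene annotation of the build was used.

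Member CpGs were close to fully methylated in both sperm libraries and centred on the middle of the scale in all 4 somatic libraries. Each sperm library had a median of 100% and each fibroblast library one of 50%, and the monocyte libraries had 52.6% and 52.9%. Both bulls gave only methylated reads at 1500 members (43.8%). These levels follow from the limits that the rule itself set.

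That spread was wide. In monocytes, replicate 1 was between 35 and 65% at 75.1% of the members and replicate 2 at 69.1%. In fibroblasts these shares were 63.6% and 68.9%. All 4 somatic libraries were within the limits together at 715 members (20.9%). At the other members at least 1 library percent lay outside the range that names the class, which counting error alone can cause. All 4 were within the limits at 24.1% of CpGs with the opposite pattern, in which sperm was below 10% and both somatic cell types were from 35 to 65%.

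Each of these percents rests on few reads. The median member had 55 summed reads in fibroblasts, 39 in monocytes and 40 in sperm. At 39 reads, 20 methylated reads give 51.3% with a 95% Wilson interval of 36.2 to 66.1%, which is as wide as the limits of the rule. At 55 reads, 28 methylated reads give 50.9% (38.1 to 63.6%). These intervals cover counting error only, since PCR copies of a molecule were not marked. Members were not unusually deep: the median coverage was 17 to 29 reads per library against 18 to 30 for all CpGs, and 0.0292% of members averaged more than 100 reads against 1.19% of all CpGs.

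CpGs at the limits show how little separated members from non-members. At chr25:603470 (UMD3.1, as all positions below), sperm had 55 methylated of 61 reads, 90.2%, and the CpG was a member. At chr3:8109108, sperm had 45 of 50 reads, exactly 90%, and the CpG was not. In monocytes, chr4:119163323 was inside with 14 of 40 reads and chr16:70878935 was outside with 15 of 43 reads. At the upper monocyte limit, chr5:30456939 was inside with 26 of 40 reads and chr1:145461727 was outside with 28 of 43 reads. In fibroblasts, chr4:69767612 was inside with 35 of 100 reads and chr23:8176301 was outside with 29 of 83. At the upper fibroblast limit, chr3:9955880 was inside with 65 of 100 reads and chr10:102812950 was outside with 41 of 63. Each pair differed by far less than the interval of either CpG.

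Members were mostly isolated. Of the 3425, 2184 (63.8%) had no other member within 1000 bp, 1062 stood in groups of 2 to 4, and 179 (5.23%) stood in 26 runs of 5 or more members with at most 1000 bp between consecutive ones. Every one of the 29 chromosomes carried members and 15 carried runs. The opposite pattern was about as frequent, with 3922 CpGs, and a larger part of it was grouped: 1276 (32.5%) were alone and 1196 (30.5%) were in 138 runs on all 29 chromosomes. Its longest run held 50 CpGs against 20 here, and 36 of its runs held at least 10 CpGs against 4 here. CpGs at 35 to 65% in all 3 cell types were fewer, 486, and 20 of them (4.12%) were in 3 runs.

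**Figure D1:**
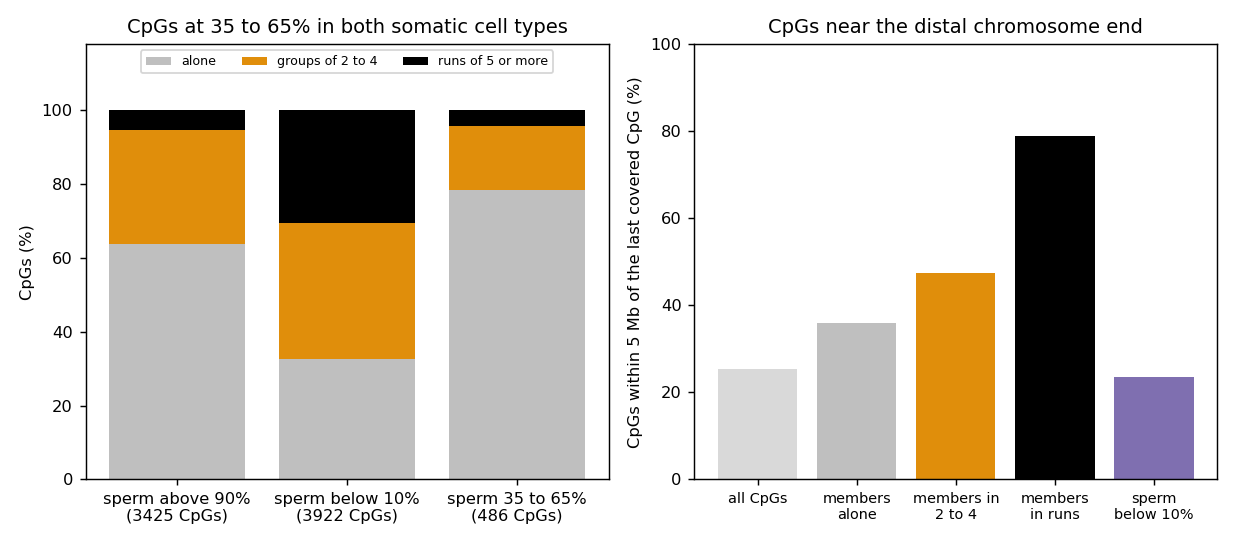
Left, bars give the percent of CpGs that were alone, in groups of 2 to 4 or in runs of 5 or more, for 3 classes of CpGs at 35 to 65% in both somatic cell types, named by their sperm methylation. Right, bars give the percent of CpGs within 5 Mb of the last covered CpG of their chromosome; 78.8% of the members in runs were there, against 25.4% of all CpGs.

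The local CpG density differed between these sets. The median number of covered CpGs within 500 bp was 11 for members, 9 for lone members, 25 for members in runs, 25 for the opposite pattern and 22 for all CpGs. A run can only form where several CpGs are covered, and the part of density in the lower grouping was not tested. A closer comparison used the nearest covered CpG within 50 bp, which 85.8% of the members had. It was itself a member for 14.8% of them, whereas for 28.0% of the opposite-pattern CpGs it had that pattern, and for 0.314% of all CpGs it was a member.

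The nearest covered CpG within 50 bp of a lone member stood at a median of 98.1% in sperm, 69.7% in fibroblasts and 76.2% in monocytes. It was above 90% in sperm for 94.9% of them and above 65% in both somatic cell types for 43.5%, against 39.2% for the neighbours of all CpGs. For members in runs the neighbour's medians were 98.3%, 50.8% and 56.0% in the same order, and it was above 65% in both somatic cell types for 12.9%. A lone member can by definition have no member beside it, so the contrast with runs is in large part built in. Neighbours at such distances often lie on the same reads, so their values are not separate measurements.

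A large part of the members, and most runs, lay towards the distal ends of the chromosomes. Within 5 Mb of the last covered CpG lay 41.8% of the members and 78.8% of those in runs, against 36.0% of the lone members and 25.4% of all CpGs. Of the 26 runs, 19 (73.1%) were there, compared with 43 of the 138 opposite runs (31.2%). At the other end there were 5.90% of members and 7.06% of all CpGs within 5 Mb of the start of coverage. By chromosome, the share of members among covered CpGs ranged from 0.176% on chromosome 1 to 0.609% on chromosome 17, and chromosome 29 had 0.574%. Chromosome 17 held 5 runs with 28 members and chromosome 29 held 4 runs with 42 members.

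The 26 runs spanned 32 to 2051 bp, with a median of 274.5 bp. Their spans held 383 covered CpGs, of which 179 (46.7%) were members, close to the 45.1% found in the opposite runs. Of the 204 other CpGs in the spans, 50 were above 65% in both, 28 were below 35% in both, and 5 were at or below 90% in sperm. In 22 runs, every CpG of the span was above 90% in sperm. The values below are means over all covered CpGs of a span, members or not.

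The longest run by members was chr29:50150851-50152132, with 20 members among 28 CpGs. Sperm had 98.2% and 97.7% in replicates 1 and 2, monocytes 59.7% and 54.8%, and fibroblasts 42.7% and 47.6%. As means, this was 97.9 ± 0.30% in sperm, 45.1 ± 3.44% in fibroblasts and 57.3 ± 3.49% in monocytes (SD, n = 2 libraries each). The 4 somatic libraries were all between the limits and far from both sperm libraries. On the same chromosome, chr29:50147555-50147672 ended 3179 bp before it, with 7 members among 9 CpGs. There, sperm had 99.4% and 99.5%, monocytes 67.4% and 52.1%, and fibroblasts 68.1% and 49.2%. In both somatic cell types replicate 1 was higher than replicate 2, by 15.3 points in monocytes and 18.9 points in fibroblasts, though the numbers name different animals.

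Another run, chr29:50048928-50049944, ended 97611 bp before the latter and had 10 members among 27 CpGs. Sperm had 98.0% and 98.4%, monocytes 48.8% and 47.9%, and fibroblasts 43.6% and 57.2%. Single CpGs varied more than these means, from 28.9 to 64.9% in monocytes and from 6.25 to 96.5% in fibroblasts when both libraries were summed. The 101 CpGs in the 5 kb that follow the run averaged 2.76% in sperm, 34.8% in fibroblasts and 6.73% in monocytes. They were not uniform. No CpG was covered between the end of the run and position 50051153, where sperm had 0%, and at position 50052777 a further member had 100% in sperm.

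The surroundings of chr29:50150851-50152132 kept the high level of sperm and were more methylated in somatic cells. The 45 CpGs in the 5 kb before it averaged 98.8% in sperm, 67.8% in fibroblasts and 84.8% in monocytes. The 38 CpGs in the 5 kb after it averaged 98.2%, 59.1% and 89.5% in the same order. By these means, the run stood out from its surroundings more in monocytes than in fibroblasts. The rule chose each run for intermediate values in both somatic cell types, so different values around it are in part built in. The 5 kb before this run also hold chr29:50147555-50147672 with its 7 members.

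Chromosome 5 carried the run with the next largest number of members, chr5:116944061-116945463, with 14 among 39 CpGs. Sperm had 98.1% and 98.7%, monocytes 58.6% and 55.1%, and fibroblasts 58.1% and 52.9%. The means in the same order were 98.4 ± 0.385%, 56.9 ± 2.48% and 55.5 ± 3.69% (SD, n = 2 libraries each), and the 2 somatic cell types overlapped. Its CpGs ranged from 7.84 to 95.7% in monocytes and from 14.6 to 88.9% in fibroblasts, so the average does not describe each CpG. Methylation after the run was 90.05% in monocytes and 77.4% in fibroblasts over 23 CpGs.

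Chromosome 21 had 1 run, chr21:67360998-67361341, with 12 members among 16 CpGs. Sperm had 98.7% and 98.1%, monocytes 56.1% and 54.7%, and fibroblasts 48.6% and 56.9%. The 27 CpGs in the 5 kb before it averaged 94.1% in sperm, 57.01% in fibroblasts and 51.9% in monocytes, but these means join low and high stretches. In monocytes, for example, position 67356889 had 5.13% and position 67360134 had 89.1%. These positions, and those given beside the run on chromosome 29, were chosen after their values were seen. At a distance of 12054 bp lay a run of the opposite pattern, chr21:67373395-67373488, with 5 CpGs. In all, 4 of the 26 runs had an opposite run within 100 kb and 8 had another member run within 100 kb.

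**Figure D2:**
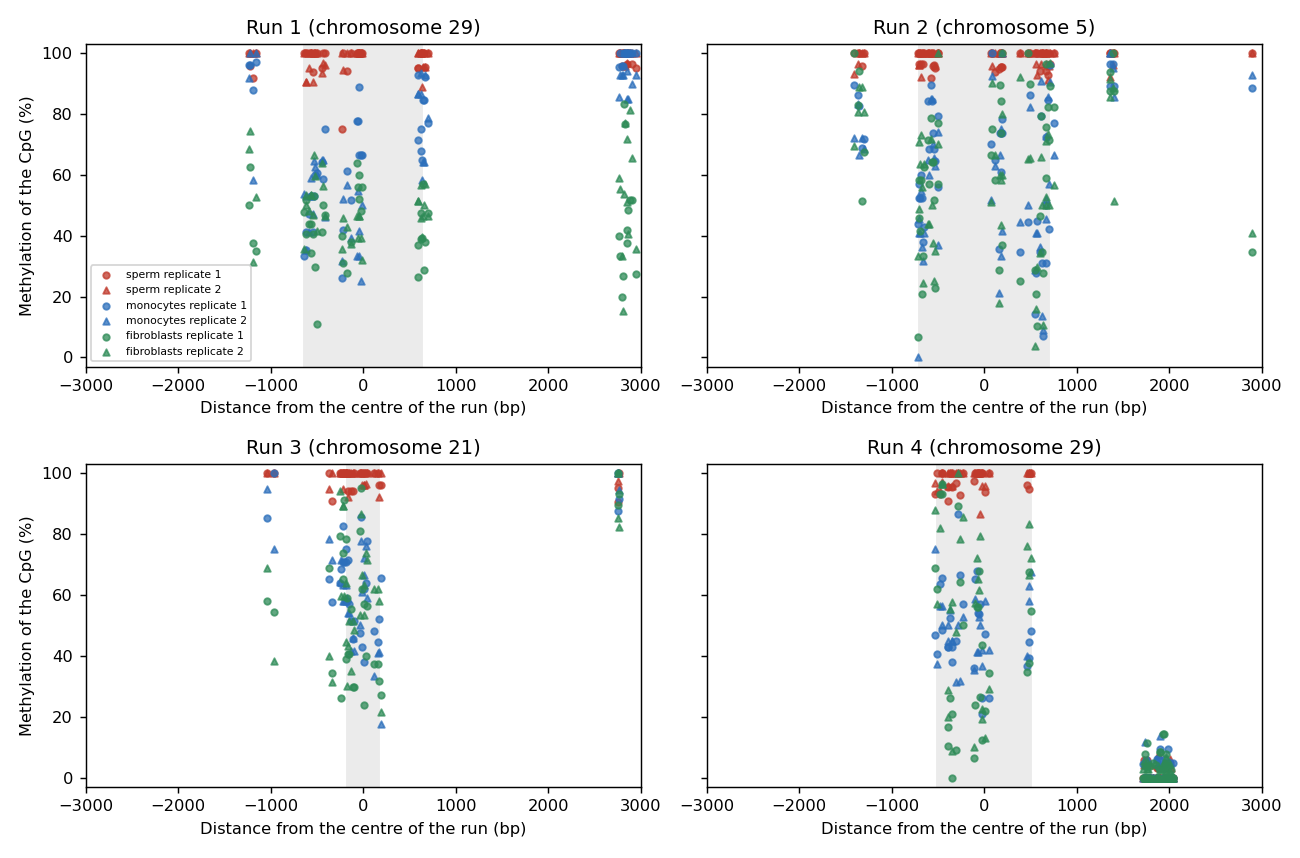
Each point is 1 CpG in 1 library, placed by its distance in bp from the centre of the run (x) and its methylation in percent (y), for the 4 runs with the most members; grey marks the run, circles and triangles are replicates 1 and 2. Sperm (red) stays near 100% across each run while monocytes (blue) and fibroblasts (green) scatter around the middle, and the cluster of CpGs to the right of run 4 is near 0% in all cell types.

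The other named runs had 6 to 8 members and differed in how far apart the animals lay. At chr9:104247923-104248259, with 8 members among 19 CpGs, sperm had 98.4% and 99.3%, monocytes 73.1% and 71.6%, and fibroblasts 78.1% and 60.5%, so that 3 of the 4 somatic libraries were above the limit for the span as a whole. Another run, chr9:104245943-104246070, lay 1853 bp away. At chr4:117869668-117869754, with 6 members among 8 CpGs, sperm had 99.0% and 97.5%, monocytes 63.1% and 56.2%, and fibroblasts 42.0% and 43.0%. Both monocyte libraries were there above both fibroblast libraries.

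At chr14:68130372-68130884, with 6 members among 24 CpGs, sperm had 99.0% and 97.3%, monocytes 53.1% and 52.8%, and fibroblasts 53.4% and 61.0%. At chr16:81514782-81515213, with 6 members among 16 CpGs, sperm had 97.5% and 96.7%, monocytes 48.0% and 67.8%, and fibroblasts 40.1% and 51.7%. At chr17:4693754-4694231, with 6 members among 15 CpGs, sperm had 99.0% and 97.9%, monocytes 51.3% and 23.9%, and fibroblasts 47.9% and 49.8%. The monocyte libraries were thus 19.8 points apart in the run on chromosome 16 and 27.3 points apart in that on chromosome 17, while they were 0.274 points apart in that on chromosome 14.

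The 16 runs ranked 11 to 26 had 5 or 6 members each. Their library means were 94.3 to 100% in sperm, 34.5 to 72.2% in fibroblasts and 31.3 to 81.0% in monocytes. The lowest and the highest monocyte means belonged to runs on chromosomes 23 and 15, in each of which the other monocyte library was between the limits. On chromosome 17, 3 runs followed each other at distances of 63178 and 51081 bp, at chr17:73452858-73454908, chr17:73518086-73518117 and chr17:73569198-73569518.

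Over the 26 runs, all 4 somatic libraries had means from 35 to 65% in 12 (46.2%), against 55 of the 138 opposite runs (39.9%). The 2 animals of a cell type differed by a median of 8.08 points in monocytes and 7.96 points in fibroblasts, and by up to 30.8 and 32.3 points. They were within 10 points of each other in 15 runs for monocytes, in 14 for fibroblasts and in 9 for both. Between the somatic cell types, the libraries overlapped in 18 runs, both monocyte libraries were higher in 6, and both fibroblast libraries were higher in 2. The opposite runs had similar replicate differences, with medians of 7.80 points in monocytes and 10.3 points in fibroblasts.

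**Figure D3:**
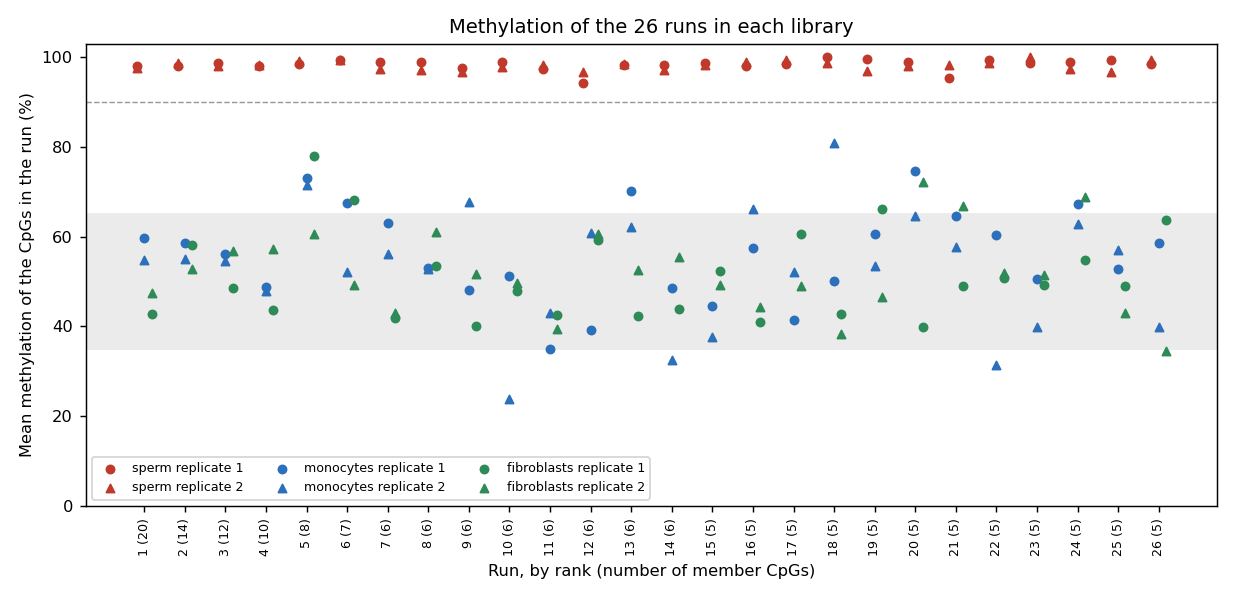
Mean methylation in percent (y) of all covered CpGs in each of the 26 runs, ordered by number of members (x, in brackets), with 1 point per library; the grey band is 35 to 65% and the dashed line 90%. Sperm libraries lie between 94.3 and 100% in every run, and all 4 somatic libraries lie in the band in 12 runs.

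Although the median run held 6 members in both patterns, the opposite pattern had the runs with the most members. Its 3 runs with the most CpGs were chr9:97661833-97664551 with 50 members among 65 CpGs, chr18:64290380-64291981 with 29 among 47, and chr13:58036644-58038273 with 27 among 30. Their means were 0.655%, 1.02% and 0.407% in sperm, 48.0%, 48.8% and 48.2% in fibroblasts, and 51.8%, 48.1% and 47.2% in monocytes. All somatic libraries of these runs were between the limits, as they were in the 4 longest runs of the sperm-methylated class.

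Whether the 2 animals of a cell type shared the intermediate level was tested for each CpG, by Fisher's exact test on methylated and unmethylated reads of replicate 1 against replicate 2 with Benjamini-Hochberg adjustment over all 950004 CpGs. This test is conditional on the summed reads that the rule used. It compares 2 animals, and its p-values measure the spread of reads within these libraries only. Against a background of 0.229% of all CpGs called in monocytes at an adjusted p below 0.05, 82 members (2.39%) were called. Against a background of 1.23% in fibroblasts, 203 members (5.93%) were called. In sperm, where the background was 0.416%, 0 members were called by Fisher's exact test or by a logistic likelihood-ratio test, and 7 had an unadjusted p below 0.05. Since summed sperm had to be above 90%, little room was left for the bulls to differ, and nothing is read from that count.

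A CpG near the middle of the scale leaves more room for a difference than one near its ends, so all CpGs at 35 to 65% in both somatic cell types are a closer background. Of these 9339 CpGs, which include the members, 2.79% were called in monocytes and 6.85% in fibroblasts. The opposite pattern had 1.05% and 5.76%, and CpGs at 35 to 65% in all 3 cell types had 10.9% and 15.4%. The members' share was thus above that of the opposite pattern in monocytes and near it in fibroblasts. Without adjustment, 394 members (11.5%) had p below 0.05 in monocytes and 845 (24.7%) in fibroblasts, against 12.3% and 25.6% of the 9339 CpGs and 1.77% and 8.47% of all CpGs. At a median of 17 to 29 reads per library, a CpG that was not called is not shown to be equal in the 2 animals. The squared difference between replicates averaged 2.19 times the counting variance in monocytes and 3.57 times in fibroblasts, and 2.39 and 3.84 times over the 9339 CpGs.

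In monocytes, 1 of 179 members in runs (0.559%) was called, and 67 of 2184 lone members (3.07%). In fibroblasts the counts were 7 of 179 (3.91%) and 128 of 2184 (5.86%). Groups of 2 to 4 had 14 of 1062 (1.32%) in monocytes and 68 (6.40%) in fibroblasts. CpGs within a run share reads and animals, and the difference between these shares was not tested. Of all 3425 members, 271 were called in either somatic cell type and 14 in both. The same counts over all CpGs are not given, so nothing is read from this overlap.

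At some members the intermediate group percent was the sum of 1 unmethylated and 1 methylated animal. At 32 members (0.934%) 1 monocyte library was at or below 10% and the other at or above 90%, against 0.0488% of all CpGs, and at 10 members (0.292%) this was so in fibroblasts, against 0.0285%. A full switch forces an intermediate sum. Over the 9339 CpGs at 35 to 65% in both somatic cell types, members included, the shares were 1.24% in monocytes and 0.535% in fibroblasts. These were above those of the members, whereas the opposite pattern had 0.28% and 0.153%, below them. CpGs at 35 to 65% in all 3 cell types had 6.79% and 3.29%. Of the 32, 27 were lone members and none was in a run, and the 10 in fibroblasts were all lone members. A difference of at least 50 points separated the animals at 178 members (5.20%) in monocytes and at 176 (5.14%) in fibroblasts. Over all CpGs these shares were 0.376% and 0.706%, and over the 9339 CpGs they were 5.06% and 5.94%. The opposite pattern had 2.35% and 5.15%, so the members were above it in monocytes and near it in fibroblasts.

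The examples that follow were chosen after their values were seen, among members with large differences between animals. At chr13:42246176, a lone member, sperm had 100% and 94.3%, monocytes 0% and 100%, and fibroblasts 91.7% and 0%. The monocyte animals differed with 0 of 29 against 20 of 20 methylated reads (Fisher's exact test, adjusted p = 5.67e-10), and the fibroblast animals with 33 of 36 against 0 of 42 (exact test, adjusted p = 1.89e-14). It was the single member that switched completely in both cell types. At chr5:27722144, the monocyte libraries had 0 of 31 and 17 of 17 methylated reads (Fisher's exact test, adjusted p = 2.49e-09), and the fibroblast libraries 100% and 40.8%.

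The other kind of split touched 1 cell type more than the other. At chr25:32514177, the monocyte libraries had 47.4% and 45.2%, while the fibroblast libraries had 36 of 42 and 0 of 53 methylated reads (Fisher's exact test, adjusted p = 1.19e-15). At chr20:62694575, sperm was at 100% in both bulls, and both somatic cell types were called. Monocytes had 100% and 26.3%, with 13 of 13 and 5 of 19 methylated reads (Fisher's exact test, adjusted p = 0.0181). Fibroblasts had 34 of 34 and 0 of 50 methylated reads (Fisher's exact test, adjusted p = 7.93e-19). The genotype of the animals at these CpGs was not analysed here, and its part in these differences was not tested.

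**Figure D4:**
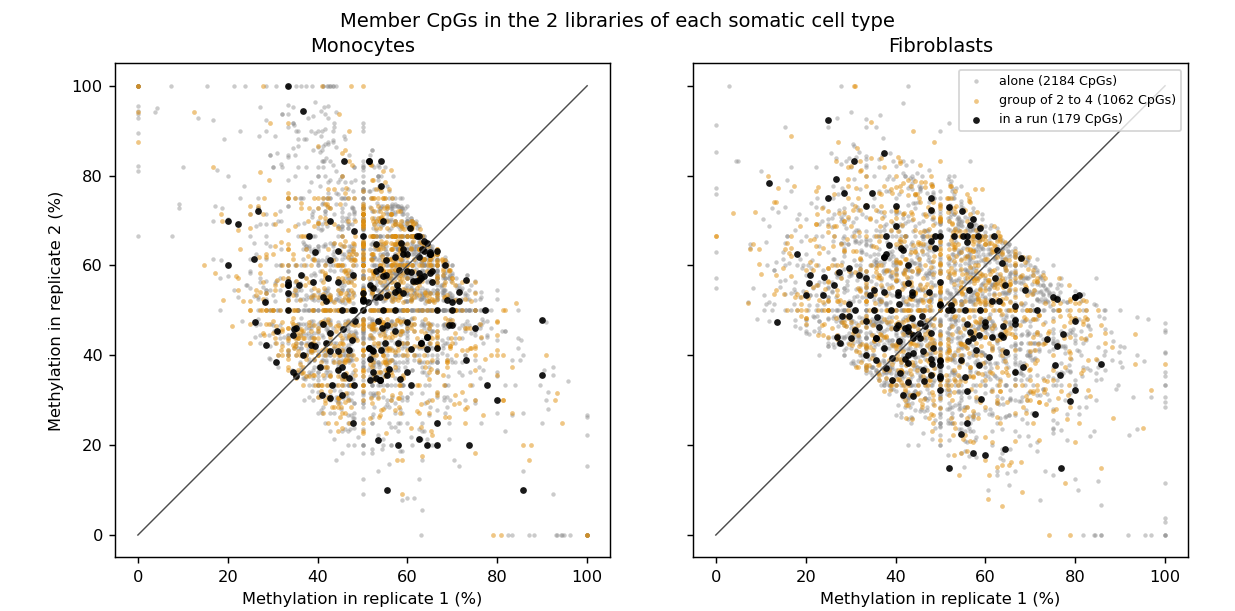
Each point is 1 member, with methylation in percent in replicate 1 (x) and replicate 2 (y) of monocytes (left) and fibroblasts (right); grey, orange and black are lone members, groups of 2 to 4 and runs, and the line is equality. Points in the upper left and lower right corners are members at which 1 animal was unmethylated and the other methylated; the summed-read limits of the rule give the band its diagonal shape.

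The rule was next applied to 1 library of each cell type, and the other library was read as held-out data. With the replicate 1 libraries, 3513 CpGs were chosen. In the held-out libraries 654 of them (18.6%, 95% Wilson interval 17.4 to 19.9%) met the whole rule again, against 0.371% of all CpGs. The interval counts CpGs as independent, although neighbours share reads, and it does not cover the spread between animals. All CpGs are a loose background, since few of them are intermediate in both somatic cell types. No held-out share is given for the opposite pattern or for the 9339 CpGs. The gap to all CpGs is thus not read as particular to this class. Of the 3 cell types, sperm met its limit most often: held-out sperm was above 90% at 88.7% of the chosen CpGs, against 41.6% of all CpGs. Held-out monocytes were from 35 to 65% at 46.8%, against 3.80% of all CpGs, and held-out fibroblasts at 44.0%, against 10.5%.

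The held-out monocytes left the range mostly upwards, with 38.7% above 65% and 14.5% below 35%. In fibroblasts the split was more even, with 30.8% above and 25.1% below. Held-out medians were 100% in sperm, 52.0% in fibroblasts and 58.8% in monocytes. The 7 other choices of 1 library per cell type gave 17.7 to 19.2% in place of 18.6%, but each counts the same 654 CpGs, at which all 6 libraries met their limits, over another number chosen.

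The same choice on the replicate 1 libraries gave 19 runs, 12 of which overlapped the 26 runs. As means over the chosen CpGs, 9 of the 19 met the rule in the held-out libraries. The run at chr29:50150872-50152132 did so, with held-out values of 94.6% in sperm, 51.5% in fibroblasts and 52.7% in monocytes. So did chr21:67360998-67361326, with 98.6%, 55.5% and 54.8% in the same order, and chr5:116944056-116945435, with 98.1%, 63.3% and 46.9%. At chr29:50048928-50049944 the held-out fibroblasts had 69.4% and left the range, while monocytes had 52.4%. A run at chr15:85113004-85113366 left it through monocytes, which rose from 51.3% in the chosen library to 81.7% in the other.

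CpGs with 5 to 500 reads in all 6 libraries that missed the minimum of 10 in at least 1 library took no part in the choice of members. The spans of 14 runs held 73 of them. As means, sperm had 97.6% and 97.3%, fibroblasts 42.3% and 44.3%, and monocytes 52.6% and 50.9%. Sperm was thus 49.9 points above the mean of the 4 somatic libraries, and every somatic library was below both sperm libraries. The spans were chosen for this contrast in the same libraries, so it is given with no test. Across the 592056 CpGs of the same coverage class in the whole series, sperm was 0.563 points above the somatic mean.

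These CpGs lie beside members and can share their reads, so they repeat the run at low coverage and are not an independent sample of the genome. In chr29:50150851-50152132 there were 6 of them, with 66.9% and 56.9% in monocytes and 27.2% and 40.5% in fibroblasts. In chr5:116944061-116945463 there were 14, with 49.7% and 51.0% in monocytes and 58.1% and 48.4% in fibroblasts. In chr17:4693754-4694231 there were 7, with 58.0% and 11.8% in monocytes, the same direction as the gap between the monocyte animals at the CpGs of that run. Sperm was at 96.0% or more in these 3 groups.

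The RefSeq gene list of a later cattle assembly, ARS-UCD2.0, places H19 and IGF2 on chromosome 29. It places MEG3, DLK1, RTL1 (a retrotransposon-derived gene of the same domain) and RASGRF1 (a guanine nucleotide exchange factor) on chromosome 21. ZDBF2 is on chromosome 2, which had 96 members (0.267% of its covered CpGs) and 0 runs. GNAS, which encodes a G protein subunit, is on chromosome 13, which had 108 members (0.303%) and 0 runs. That chromosome also held the opposite run chr13:58036644-58038273 named above. Whether GNAS or ZDBF2 takes a germline mark from sperm was not examined here. Of all CpGs 0.361% were members, and only 15 of the 29 chromosomes carried runs. Nothing is therefore read from the absence of runs on chromosomes 2 and 13. Of the 23 imprinted genes listed for this comparison, 21 were found by symbol. No UMD3.1 annotation was used, and positions of the assemblies cannot be set against each other, so it was not tested whether any run lies at one of these genes.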

How the data were processed

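RRBS was made from MspI fragments of 40 to 290 bp read as 75 bp pairs, per the labels and the study's methods. Per the labels, the submitters' processing notes name Trim Galore 0.3.7, Bismark 0.14.3, FastQC, Bowtie, methylKit and the UMD3.1 build. The deposited tables hold for every CpG the coverage, a count of reads, and the authors' methylation value, a percent of these reads. The deposited values are not normalized, with 1 table per library. Reads of the 2 libraries of a cell type were summed here to find members. Samples were grouped by cell type from their titles.

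The 6 tables were joined by position with Python 3.11.15, numpy 2.4.6, pandas 2.3.3 and scipy 1.17.1, and methylated reads were recovered as coverage times percent, rounded. Median coverage was 9 to 14 reads per CpG and library before the minimum of 10. Members and runs followed the stated limits. The named runs are the 10 with the most members and, for the opposite pattern, 3. Single CpGs named are those beside each limit, and others are said to be chosen after their values were seen. The members and the lists of regions and genes were chosen with earlier results of these data known.

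Replicates were compared by Fisher's exact test, two-sided, with Benjamini-Hochberg adjustment over 950004 CpGs. The exact permutation test designed for CpGs that the rule did not use is not given, since the spans around them were chosen on the same contrast. Fisher's test and the likelihood-ratio test were tested on simulated data. Unchanged CpGs there had counting error only, less than the spread between these animals, so the simulation does not show how the tests behave on these libraries. The labels do not tie replicate numbers to shared animals. Alternatives were other coverage, methylation, distance and number limits, a likelihood-ratio test, and each library left out. No genome of UMD3.1 was used, so no sequence or gene is given for a region, and CpGs on other chromosomes or scaffolds were not used here.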

Additional observations from a re-analysis of the deposited data

How the results depend on the processing

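The number of members and of runs followed the limits, since both are counts at thresholds set against shallow percents. A coverage minimum of 5 gave 6088 members and 50 runs, and one of 20 gave 426 and 2. Somatic limits of 40 to 60% gave 1475 members and 4 runs, and limits of 30 to 70% gave 6616 and 84. Requiring 10 members left 4 runs and requiring 3 gave 146. Requiring that 50% of the CpGs in a span were members, which was chosen after seeing the data, left 12. Leaving out 1 library gave 3172 to 3793 members and 18 to 26 runs; 63.6 to 96.5% of the members were kept. The 4 longest runs were overlapped in every such setting. Of these 4, 1 remained at a minimum of 20, 3 at 40 to 60% and 2 with the share of 50%.

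At a minimum of 20 reads, Fisher's exact test called 19 of the 426 members in monocytes and 45 in fibroblasts. At the usual minimum and an adjusted p below 0.01 it called 58 of 3425 in monocytes and 106 in fibroblasts. The likelihood-ratio test called 114 and 304 members, against 82 and 203 by Fisher's exact test. Shares over all CpGs are not given for these settings, so the counts show only how the calls move. The held-out share was 20.3% at a minimum of 20. At CpGs not used by the rule, sperm was 48.1 to 51.6 points above somatic cells with 1 library left out. The CpGs and the spans stayed those chosen on all 6 libraries, so this range only averages the same values again and checks nothing. No paired analysis was possible because the tests compare the animals of 1 cell type with each other, replicate numbers name different animals in each cell type, and the other results come from no test between paired groups. At 2 animals per cell type and about 20 reads per CpG and library, a shared intermediate level and a moderate difference between animals cannot be told apart at a single CpG.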
